A study of Caenorhabditis elegans with 20 samples.

Results

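The interaction of the ivd-1 and bcat-1 mutations was examined in a 2-by-2 set of Caenorhabditis elegans strains, in which each mutation was present or absent in the other's background. The members were 16 of the 20 samples of the series, 4 from each strain, chosen by strain label alone. The 4 groups were the double mutant carrying bcat-1(hh58) together with ivd-1(tm6784), the ivd-1(tm6784) single mutant, the bcat-1(hh58) single mutant and wild-type N2 worms. All were whole worms on day 1 of adulthood, grown at 20 °C on OP50 bacteria. The remaining 4 samples, from a hecd-1 mutant, served only to estimate the spread between samples. For each gene the interaction was taken on the log2(FPKM + 0.5) scale, where FPKM is the fragment count scaled by transcript length and library size, as the double mutant minus ivd-1, less the difference between bcat-1 and wild-type. It is 0 where the effects of the mutations add on the log scale, so that their fold changes multiply. Of 46284 genes listed, 15957 had at least 0.5 FPKM in at least 4 samples and were tested. Calls rest on limma p-values adjusted over all tested genes by the Benjamini-Hochberg method, at 0.05 or less, and the ± values below are SDs over 4 samples.

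BCAT-1 is the transaminase that starts the breakdown of leucine, isoleucine and valine. IVD-1, isovaleryl-CoA dehydrogenase, acts further along the leucine branch, so that a worm lacking BCAT-1 activity should send less leucine carbon to the step that IVD-1 carries out. The comparison asks whether the transcript response to loss of the later step depends on the state of the earlier one. Several limits belong to the strains. The bcat-1(hh58) allele has a premature stop and frameshift in the first exon, and the authors regarded it as a likely partial loss of function. The bcat-1 worms grow more slowly, and collection was fitted to the generation time of each strain and judged by eye for egg-bearing adults. Strain and exact developmental stage at collection therefore cannot be told apart, and in whole worms fewer cells of a type and less RNA per cell cannot be told apart either.

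FPKM sums lay between 1004157 and 1136133 over all samples, and the number of reads behind each value is unknown. Replicates came from independent experiments. In a principal component analysis of the 16 samples, the leading components took up 39.9% and 24.8% of the variance. The bcat-1 replicate 2 lay away from the other bcat-1 samples towards the double mutant, and double mutant replicate 3 lay farthest from the other double mutants. With both left out, an alternative chosen after seeing the data, 8364 genes had a called interaction and 5312 a called ivd-1 effect in the bcat-1 background, against 7569 and 3738 with all samples. A further 187 tested genes combined zeros with values of 10 FPKM or higher, and without them 7532 of 15770 genes were called.

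The response was not additive for 7569 genes, 47.4% of those tested. The interaction was negative for 5625 genes (35.3%) and positive for 1944 (12.2%). With samples matched across strains by replicate number, 7146 genes (44.8%) were called with one sign in all 4 numbers. This matching is largely arbitrary, because correlations gave little pairing by number, although some gene lists did share a replicate pattern across strains. Among the called genes, 3048 had an interaction of at least 2-fold (19.1%), of which 3000 were negative (18.8%) and 48 positive (0.301%). The median interaction over all tested genes was -0.19. It became -0.03 with median-of-ratios scaling and 0.19 with quantile normalization, and the called genes then divided into 4348 positive against 4462 negative, and 5905 positive against 2685 negative. The balance of directions over the transcriptome therefore depended on the scaling, and the medians of gene groups below, given as fitted, stand against -0.19 for all genes. The counts of negative and positive interactions in gene groups below stand against 35.3% and 12.2% of all tested genes. Without bcat-1 replicate 2 the count was 9184, and without bcat-1 replicate 3 it was 5916.

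Several gene list means followed the design as the genes did, among them the mean of the molting list. The mean log2 level of 32 tested molting and apical matrix genes, which are expressed in cycles before each larval molt, lay between 2.16 and 2.44 in the double mutant, 2.11 and 2.82 in ivd-1, 2.64 and 3.54 in bcat-1, and 1.24 and 1.66 in wild-type. Its own interaction was -1.82. With this mean as a covariate, an alternative chosen after seeing the data, 6 genes were called in place of 7569, while the median standard error rose to 0.32 from 0.19. The score was built from genes that are themselves among those called, so that the covariate removes part of the quantity being measured. The mean of 39 germline and oocyte genes, used as a covariate instead, left 3118 calls. That score had an interaction of 0.33, and 33 of its 39 genes are themselves called. This covariate too removes part of the quantity being measured, and calls lost with it below are read with that limit. The part of stage or tissue make-up in the result was not tested.

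The ivd-1 effect differed between the backgrounds. In the bcat-1 background it was called for 3738 genes (23.4%). There 627 genes were higher and 3111 lower in the double mutant than in bcat-1 (3.93% and 19.5% of those tested). In the wild-type background it was called for 3633 genes (22.8%). There 3173 genes were higher and 460 lower in ivd-1 than in wild-type (19.9% and 2.88%). These balances depended on scaling. With median-of-ratios scaling 2568 genes were higher and 2733 lower in the bcat-1 background, and 2475 higher and 1570 lower in the wild-type background. With quantile normalization the balance turned round, to 3341 higher and 1837 lower in the bcat-1 background and 1396 higher and 2262 lower in the wild-type background. These contrasts share no sample. Across genes their effects had a Pearson r of -0.62, and 78.8% of genes had opposite signs in the 2 contrasts, as a description over genes that are not independent. The coefficient was -0.63 with median-of-ratios scaling and -0.61 with quantile normalization. It was weaker with the germline score as a covariate (-0.46) and with the molting score as a covariate (-0.44). Among the 5625 genes with a negative interaction, 1501 had an ivd-1 effect called in both backgrounds in opposite directions, 1460 only in the bcat-1 background, 1451 only in the wild-type background, and 11 in both in the same direction. Because the interaction is the difference of these 2 effects, choosing genes by it favours opposite over same directions. The count for the bcat-1 background was the least stable of all. It was 3738 with all samples, 448 without bcat-1 replicate 3, 608 without double mutant replicate 3, 855 without bcat-1 replicate 1, 1016 without double mutant replicate 4, 1890 without bcat-1 replicate 4 and 7707 without bcat-1 replicate 2. The count for the wild-type background was 3633 with all samples and 2269 without ivd-1 replicate 2.

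**Figure D1:**
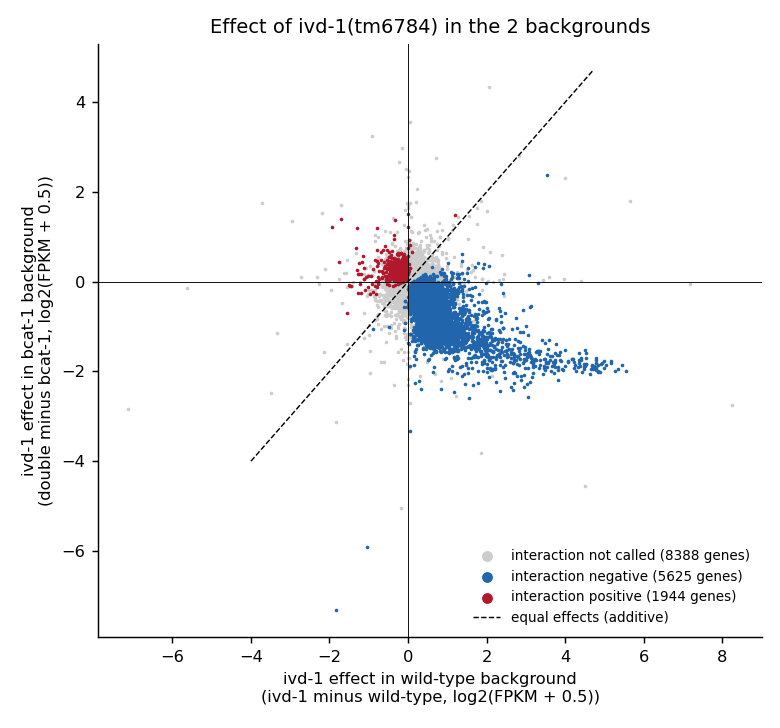
Effect of ivd-1(tm6784) on each of 15957 tested genes in the bcat-1 background (vertical axis, double minus bcat-1) against that in the wild-type background (horizontal axis, ivd-1 minus wild-type), both as differences in mean log2(FPKM + 0.5). Points are genes, coloured by the sign of a called interaction, and the dashed line marks equal effects. The 5625 genes with a negative interaction lie mostly to the lower right, where the ivd-1 effect is negative in bcat-1 and positive in wild-type.

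The bcat-1 effect was called for similar numbers of genes in both backgrounds, and the balance of directions depended on scaling. In the ivd-1 background 7112 genes were called (44.6%), 3416 higher and 3696 lower (21.4% and 23.2%). In the wild-type background 7055 were called (44.2%), 5404 higher and 1651 lower (33.9% and 10.3%). With median-of-ratios scaling the excess of higher genes in the wild-type background was gone, at 3922 higher and 3961 lower. The ivd-1 background then had 3011 higher and 3615 lower. Quantile normalization gave 4388 higher and 3036 lower in the ivd-1 background and 2537 higher and 4788 lower in the wild-type background. Both single mutants lay above wild-type, with the double mutant below both, in 4035 of the 5625 genes with a negative interaction (71.7%). The mirror image, both single mutants below wild-type and the double mutant above both, was seen in 1515 of the 1944 genes with a positive interaction (77.9%). By mean log2 level the double mutant was nearest to wild-type for 2602 of the negative genes (46.3%) and 1317 of the positive genes (67.7%). Nearest does not mean equal. The double mutant lay below the 3 other strains in 2030 of the negative genes (36.1%). It lay above the 3 other strains in 1218 of the positive genes (62.7%). The interaction is built from the same strain means, so choosing genes by its sign favours these patterns. Their shares over all tested genes were not computed, and the counts only describe the called genes.

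The mutated genes were read first. The ivd-1 transcript had 64.1, 65.9, 59.7 and 60.3 FPKM in the double mutant, 149.1, 161.7, 152.8 and 156.7 in ivd-1, 126, 127, 127 and 123 in bcat-1, and 224, 230, 206 and 209 in wild-type. The 4 strains did not overlap, and the transcript was lower in each mutant than in wild-type. Its interaction was -0.52 (SE 0.07, limma adjusted p = 4.2e-05), a larger fall in the bcat-1 background (-1.0) than in the wild-type background (-0.49). The gene lies at chromosome IV, 5086856 to 5088864, on the minus strand of WBcel235 and overlaps exons of pygo-1 on the other strand. The bcat-1 transcript averaged 194 ± 35.9 FPKM in the double mutant, 210 ± 13.8 in ivd-1, 209 ± 9.03 in bcat-1 and 135 ± 10.3 in wild-type. It was higher in all 3 mutants than in wild-type to a like degree (interaction -0.77, SE 0.15, adjusted p = 0.0011), so that its level does not mark the bcat-1 allele.

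A small set of genes was high in ivd-1 and lower in the double mutant. The insulin-like peptide gene ins-12 had 2.03, 3.21, 2.19 and 1.06 FPKM in the double mutant, 30.9, 25.6, 28.4 and 30.5 in ivd-1, 2.50, 3.37, 1.51 and 1.3 in bcat-1, and 2.25, 3.99, 1.81 and 2.22 in wild-type. The ivd-1 samples did not overlap any other strain, and the other 3 strains overlapped each other. The ivd-1 effect was -0.02 in the bcat-1 background and 3.3 in the wild-type background, and the interaction was -3.32 (SE 0.40, adjusted p = 2.4e-05). The acyl-CoA dehydrogenase gene acdh-9 averaged 79.0 ± 9.16 FPKM in the double mutant, 310 ± 21 in ivd-1, 69.9 ± 4.42 in bcat-1 and 129 ± 7.29 in wild-type, with an interaction of -1.09 (SE 0.11, adjusted p = 1.2e-05). With the molting score as a covariate both genes were called, at -4.51 for ins-12 and -1.44 for acdh-9. The lipid-binding protein gene lbp-8, which carries a lysosomal lipid signal to the nucleus, averaged 1.68 FPKM in the double mutant, 8.48 in ivd-1, 1.24 in bcat-1 and 1.98 in wild-type. The nuclear receptor gene nhr-53 averaged 1.85, 6.44, 2.16 and 1.81 FPKM in the same order of strains, and the glucuronosyltransferase gene ugt-32 averaged 1.63, 5.57, 2.74 and 0.741. The interactions of these 3 genes were -1.62, -1.78 and -2.90. For ugt-32 the ivd-1 effect was called in both backgrounds, at -0.59 in bcat-1 and 2.31 in wild-type. None of these 3 was called with the molting score as a covariate, where the adjusted p was 0.288 for lbp-8, 0.517 for nhr-53 and 0.067 for ugt-32.

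For acdh-2, an acyl-CoA dehydrogenase gene, the effects multiplied at the pseudocount used and not at a smaller one. It had 3.80, 7.48, 4.23 and 4.57 FPKM in the double mutant, 340, 363, 332 and 361 in ivd-1, 0.192, 0.466, 0.221 and 0.226 in bcat-1, and 65.7, 53.3, 31.6 and 52.6 in wild-type. No strain overlapped another. The ivd-1 effect was 2.80 in the bcat-1 background and 2.82 in the wild-type background, with an interaction of -0.02 (SE 0.28, adjusted p = 0.97, 95% interval -0.60 to 0.57). The bcat-1 samples lie below the pseudocount of 0.5 FPKM, and with a pseudocount of 0.1 the interaction was 0.94 (adjusted p = 0.027). The gene lies at chromosome II, 5544778 to 5547492, and overlaps exons of ins-13 on the same strand, while ins-12 lies at 5554617 to 5555361 on the other strand.

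The 22 measured genes of branched-chain amino acid breakdown had 4 positive, 7 negative and 11 uncalled interactions, with a median of 0.02. The shares of 18.2% and 31.8% lie near the 12.2% and 35.3% of all tested genes. The bcat-1 effect lowered 16 of them in the ivd-1 background and 17 in the wild-type background, against 23.2% and 10.3% of all tested genes. Of 7 genes of the propionate shunt, the route that breaks down propionate when vitamin B12 is low, 2 were positive, 2 negative and 3 not called. Among them hach-1 averaged 93.1 ± 4.68 FPKM in the double mutant, 200 ± 26.9 in ivd-1, 100 ± 7.94 in bcat-1 and 357 ± 51 in wild-type (interaction 0.73, SE 0.16, adjusted p = 0.0021). The hydroxyacid dehydrogenase gene hphd-1 averaged 96.2, 222, 114 and 409 FPKM in the double mutant, ivd-1, bcat-1 and wild-type (interaction 0.66, adjusted p = 0.018). In both genes ivd-1 lowered the transcript in the wild-type background, and the effect in the bcat-1 background, -0.10 and -0.24, was not called. For nhr-68, a receptor that regulates the shunt, the interaction of -0.60 (adjusted p = 0.017) was lost with median-of-ratios scaling.

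**Figure D2:**
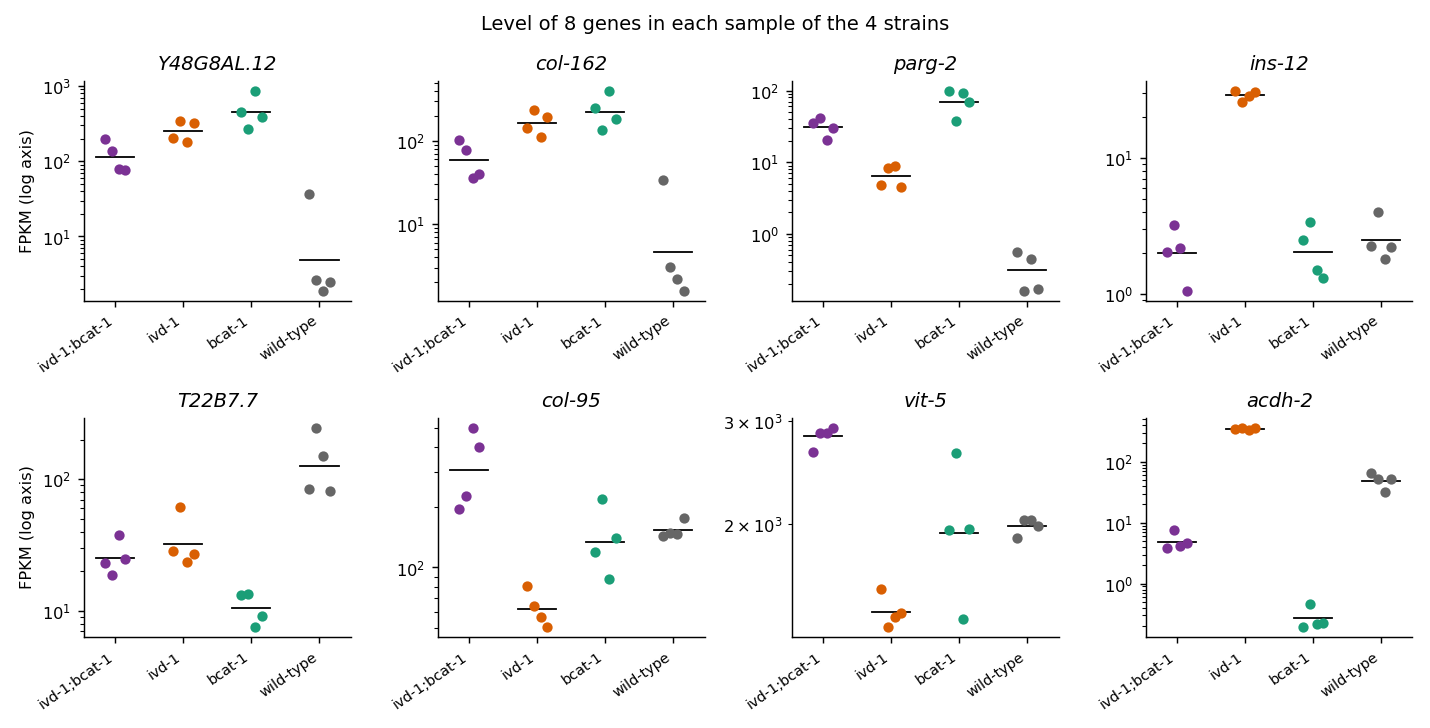
FPKM on a log axis of 8 genes in each of 16 samples, grouped by strain from the double mutant to wild-type. Points are samples and bars are means on the log2(FPKM + 0.5) scale. The double mutant mean lies below those of both single mutants and above that of wild-type for Y48G8AL.12, ins-12 is high in ivd-1 alone, vit-5 is highest in the double mutant, and acdh-2 has 4 separate levels.

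Cuticle genes held many of the largest interactions. Cuticle collagens form the worm's outer coat and are made in waves before each molt. Of 140 tested collagens, 99 had a negative interaction, 13 a positive one and 28 were not called, and the median was -3.51 against -0.19 for all genes. The ivd-1 effect had a median of -1.54 in the bcat-1 background, where 77 were lower and 10 higher, and 1.94 in the wild-type background, where 92 were higher and 6 lower. Over all tested genes 19.5% were lower and 3.93% higher in the bcat-1 background. In the wild-type background 19.9% were higher and 2.88% lower. The collagen col-162 had 103, 78.5, 36.2 and 40.5 FPKM in the double mutant, 142, 238, 111 and 192 in ivd-1, 246, 135, 397 and 184 in bcat-1, and 34.3, 3.04, 2.2 and 1.59 in wild-type. All double mutant samples were below all ivd-1 samples and above all wild-type samples, and wild-type replicate 1 stood far above the other 3. Its interaction was -6.91 (SE 1.06, adjusted p = 1.3e-04). The summed FPKM of all 176 collagens listed was 43000 to 63900 in the double mutant, 66800 to 71800 in ivd-1, 54200 to 67300 in bcat-1 and 61200 to 66700 in wild-type. The ivd-1 sums lay above those of the double mutant and wild-type, and the other strains overlapped.

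The gene Y48G8AL.12 had a pattern like that of many collagens. It had 198, 135, 79.4 and 77.5 FPKM in the double mutant, 201, 340, 181 and 322 in ivd-1, 450, 272, 857 and 388 in bcat-1, and 37.1, 2.62, 1.91 and 2.51 in wild-type. Its interaction of -7.53 (SE 1.04, adjusted p = 6.0e-05) was the largest among genes with a mean of at least 10 FPKM in every strain. In wild-type that mean was carried by replicate 1, and the other 3 samples lay below 3 FPKM. C02E7.7, R12E2.7 and F41F3.3 had interactions of -7.26, -7.32 and -6.74. Among further collagens col-88 had an interaction of -7.31, col-161 of -6.90 and col-138 of -6.74. Over 16 samples the log2 levels most like those of Y48G8AL.12 were those of R12E2.14, R12E2.15, col-65 and grl-16, with a Pearson r of 0.998 each, and of col-157, with 0.997, as a description over samples that share strains.

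Other genes of the outer coat went the same way. Of 32 tested molting and apical matrix genes, 25 were negative and none positive, with a median of -1.09. The molting gene mlt-8 averaged 14.9 FPKM in the double mutant, 27 in ivd-1, 56.2 in bcat-1 and 2.48 in wild-type (interaction -4.96, SE 0.61, adjusted p = 2.7e-05). The cuticulin gene cut-2 averaged 23.5 ± 3.83, 53.7 ± 15.6, 76.9 ± 37.4 and 3.22 ± 4.15 FPKM in the double mutant, ivd-1, bcat-1 and wild-type (interaction -5.93). For mlt-9 and for lpr-3, a lipocalin-related apical matrix gene, the interactions were -4.12 and -4.13. Hedgehog-related genes, which in worms encode secreted proteins often made by the epidermis, were negative in 47 of 60 and positive in 4 (median -1.33), with grl-16 at -6.50, grd-6 at -5.86 and wrt-4 at -5.16. Secreted astacin metallopeptidases, some of which free the old cuticle at molting, were negative in 22 of 30 and positive in none (median -1.2). The molting protease gene nas-36 averaged 1.46 FPKM in the double mutant, 3.18 in ivd-1, 4.45 in bcat-1 and 0.506 in wild-type (interaction -3.17).

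Among the 13 collagens with a positive interaction was col-95. Its values were 195, 228, 499 and 399 FPKM in the double mutant, 80.9, 64.5, 56.8 and 50.2 in ivd-1, 120, 220, 87.4 and 141 in bcat-1, and 144, 149, 147 and 176 in wild-type. All double mutant samples were above all ivd-1 and wild-type samples, while the double mutant and bcat-1 overlapped. The interaction was 2.49 (SE 0.42, adjusted p = 3.0e-04).

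**Figure D3:**
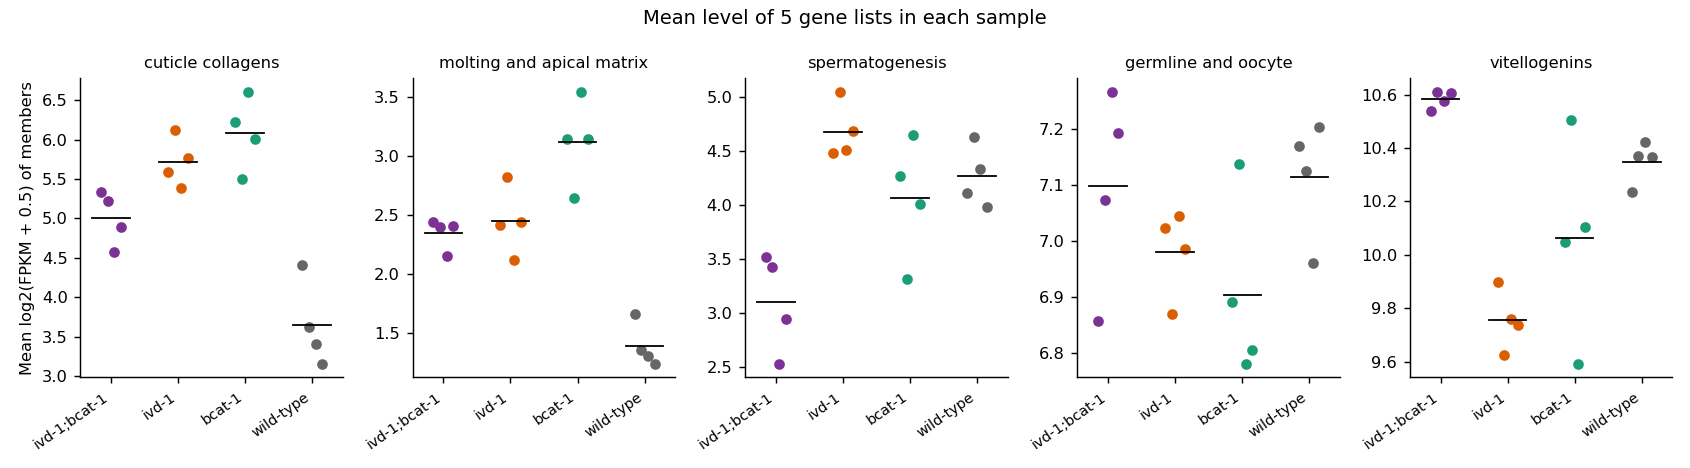
Mean log2(FPKM + 0.5) of the tested members of 5 gene lists in each of 16 samples, by strain. Points are samples and bars are strain means. Collagens and molting genes are lowest in wild-type, spermatogenesis genes are lowest in the double mutant, and the 4 double mutant samples have the highest vitellogenin means.

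The muscle, neuropeptide and synaptic lists had smaller median interactions of the same sign. Of 44 muscle genes, 38 were negative (86.4%) and none positive, with a median of -0.55. Over all tested genes 35.3% were negative and 12.2% positive. The tropomyosin-binding troponin gene mup-2 averaged 290 ± 72.9 FPKM in the double mutant, 460 ± 47.7 in ivd-1, 398 ± 61.2 in bcat-1 and 361 in wild-type (interaction -0.83, SE 0.22, adjusted p = 0.0061). The myosin heavy chain gene myo-3 had an interaction of -1.01 (adjusted p = 0.0054). With germline level as a covariate neither was called. Neuropeptide and insulin genes were negative in 82 of 135 (60.7%) and positive in none (median -0.65). The epidermal antimicrobial peptide gene nlp-29 averaged 89.4 ± 11.9 FPKM in the double mutant, 106 ± 28 in ivd-1, 125 ± 30.1 in bcat-1 and 26.9 ± 9.92 in wild-type (interaction -2.45, SE 0.32, adjusted p = 3.8e-05), and the related nlp-34 had -4.90. Being epidermal, nlp-29 was not read as a neuronal gene. Of 34 synaptic genes, 19 were negative (55.9%) and 2 positive (5.9%). The median of this list was -0.54 and turned to 0.15 with quantile normalization, where unc-17, the vesicular acetylcholine transporter gene, was no longer called (-0.94 with no such scaling, -0.03 with it).

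Sperm genes were lowest in the double mutant. Of 79 spermatogenesis genes, 58 were negative, 1 positive and 20 not called, with a median of -1.46. The mean log2 level of the list lay between 2.53 and 3.52 in the double mutant, 4.48 and 5.04 in ivd-1, 3.32 and 4.65 in bcat-1, and 3.98 and 4.63 in wild-type. The double mutant did not overlap ivd-1 or wild-type, and overlapped bcat-1 only through bcat-1 replicate 2 (3.32). The ivd-1 effect on these genes was called lower for 53 and higher for 1 in the bcat-1 background, and higher for 3 and lower for none in the wild-type background. The shares over all tested genes, in the same order, were 19.5%, 3.93%, 19.9% and 2.88%. The sperm-supplied embryo factor spe-11 had 8.64, 7.60, 2.22 and 4.39 FPKM in the double mutant, 17.9, 28.2, 16.8 and 22.7 in ivd-1, 18.4, 7.7, 23.3 and 13.2 in bcat-1, and 11.6, 15.6, 13.3 and 10.3 in wild-type. Its interaction was -2.14 (SE 0.54, adjusted p = 0.0051). The count of 58 negative spermatogenesis genes was 35 without double mutant replicate 3, 34 without ivd-1 replicate 2, 38 without bcat-1 replicate 1, 33 without bcat-1 replicate 3, 37 without wild-type replicate 4 and 72 without bcat-1 replicate 2. The Argonaute genes alg-3 and alg-4, which act in the male germline, had interactions of -2.3 and -2.28. Hermaphrodites make sperm before oocytes, so the level of sperm transcripts also varies with stage, whose part in the result was not tested. When germline level was a covariate, 7 of the 79 were called negative and none positive.

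Oocyte, eggshell and yolk genes went the other way. Of 39 germline and oocyte genes, 33 were positive and none negative (median 0.39), and of 20 eggshell genes 17 were positive and 1 negative (median 0.50). The oocyte maturation gene oma-2 averaged 396 ± 48.1 FPKM in the double mutant, 300 ± 27.1 in ivd-1, 313 ± 56.6 in bcat-1 and 361 ± 19.8 in wild-type (interaction 0.62, SE 0.16, adjusted p = 0.0050). The RNA-binding protein genes pie-1 and puf-5 had interactions of 0.63 and 0.59, the eggshell proteoglycan gene cpg-2 of 0.59 and the chitin synthase gene chs-1 of 0.62. With germline level as a covariate oma-2 and chs-1 were not called (adjusted p = 0.056 and 0.072). That covariate is the mean of the germline and oocyte list itself, so the loss of such calls is partly built in. The negative eggshell gene was cpg-7, at 28.1 FPKM in the double mutant, 58.2 in ivd-1, 94.9 in bcat-1 and 16.6 in wild-type (interaction -3.44), which overlaps an exon of gur-4 on the other strand.

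All 5 tested vitellogenins, yolk proteins made in the intestine and taken up by oocytes, had a positive interaction, with a median of 1.16. For vit-5 the values were 2651, 2861, 2860 and 2921 FPKM in the double mutant, 1544, 1328, 1384 and 1404 in ivd-1, 1950, 2647, 1370 and 1957 in bcat-1, and 1886, 2030, 2029 and 1982 in wild-type. All 4 double mutant samples lay above all others, and bcat-1 ranged from within ivd-1 to just below the double mutant. The interaction was 1.04 (SE 0.18, adjusted p = 3.2e-04). The ivd-1 effect was 0.55 in the bcat-1 background and -0.49 in the wild-type background. The interactions of vit-1, vit-3, vit-4 and vit-6 were 1.25, 1.16, 1.32 and 0.80, and the 5 genes also stayed positive with either other scaling and when germline level was a covariate. With the molting score as a covariate none of the 5 was called. The interactions were then 0.40 for vit-1, -0.03 for vit-3, 0.07 for vit-4, 0.07 for vit-5 and 0.16 for vit-6.

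Genes of dividing and growing cells were positive with small effects. Of 51 cell cycle genes 41 were positive and none negative (median 0.34), and of 25 nuclear pore genes 19 were positive and none negative (median 0.32). The cyclin gene cyb-3 averaged 738 ± 78.9 FPKM in the double mutant, 522 ± 60 in ivd-1, 616 ± 113 in bcat-1 and 615 ± 42.2 in wild-type (interaction 0.51, SE 0.17, adjusted p = 0.021). The replicative helicase gene mcm-6 had 0.56 and the nuclear pore gene npp-9 had 0.44. The call for cyb-3 was lost without double mutant replicate 3 (adjusted p = 0.051) and without ivd-1 replicate 2 (adjusted p = 0.052), and with germline level as a covariate neither cyb-3 nor mcm-6 was called (adjusted p = 0.296 and 0.12). Without double mutant replicate 3, ivd-1 replicate 2 or bcat-1 replicate 3, the positive cell cycle genes numbered 26, 26 and 27. The positive nuclear pore genes numbered 11, 11 and 10 without the same samples and 12 without bcat-1 replicate 1.

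Proteasome genes had positive interactions where one was called. The 26S proteasome degrades ubiquitin-marked proteins, with a 19S regulatory particle that receives them and a 20S core that cuts them. Of 20 genes of the 19S particle 15 were positive and none negative (median 0.22), and of 14 genes of the 20S core 11 were positive and none negative (median 0.19). The lid deubiquitinase gene rpn-11 had 248, 255, 292 and 265 FPKM in the double mutant, 252, 226, 255 and 237 in ivd-1, 228, 265, 223 and 238 in bcat-1, and 264, 259, 270 and 270 in wild-type. The groups overlapped, and both single mutants averaged below wild-type (243 and 238 against 266), with the double mutant at 265. The gene overlaps pqn-48 on the other strand. Its interaction was 0.29 (SE 0.09, adjusted p = 0.013). For the core subunit gene pas-5 the interaction was 0.26 (SE 0.06, adjusted p = 0.0037). When germline level was a covariate, none of the 19S genes and 3 of the 20S genes were called positive, and with median-of-ratios scaling 18 and 14 were. Without double mutant replicate 3, which had the highest mean of both lists in its strain, the positive genes numbered 11 in the 19S proteasome and 8 in the 20S proteasome.

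**Figure D4:**
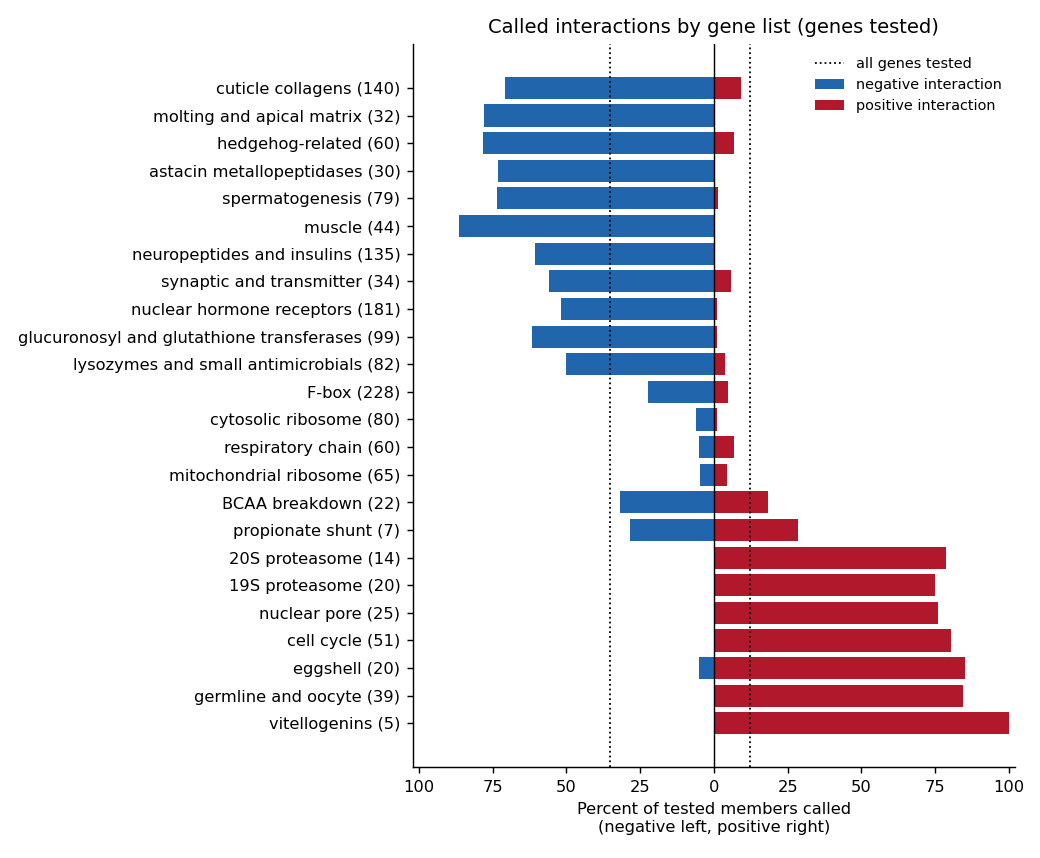
Percent of the tested members of 24 gene lists with a called interaction, negative to the left in blue and positive to the right in red, with the number of genes tested in brackets. Dotted lines mark the shares over all tested genes, 35.3% negative and 12.2% positive. Collagen, molting, muscle and sperm lists extend to the left, and proteasome, cell cycle, oocyte and yolk lists to the right.

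For most ribosomal and respiratory genes no interaction was called. Of 65 mitochondrial ribosome genes 3 were positive and 3 negative, and of 60 respiratory chain genes 4 were positive and 3 negative. The bcat-1 effect lowered 51 of the mitochondrial ribosome genes in the ivd-1 background and 47 in the wild-type background, and 56 and 51 of the respiratory chain genes. Over all tested genes bcat-1 lowered 23.2% in the ivd-1 background and 10.3% in the wild-type background, and raised 21.4% and 33.9%. Of 80 cytosolic ribosome genes 1 was positive and 5 negative, while bcat-1 lowered 79 in the ivd-1 background and 32 in the wild-type background. Of 228 F-box genes, whose products select proteins for ubiquitination, 11 were positive and 51 negative, and bcat-1 raised 121 and 125. The positive F-box genes numbered 5 without double mutant replicate 3, 6 without ivd-1 replicate 2 or bcat-1 replicate 3, 7 without bcat-1 replicate 1 or wild-type replicate 4, and 23 without bcat-1 replicate 2. Of 27 autophagy genes 1 was positive and 5 negative, and bcat-1 raised 18 and 14. These counts depended on scaling. F-box genes had 92 positive and 13 negative calls with quantile normalization. With median-of-ratios scaling 35 of the mitochondrial ribosome genes and 30 of the respiratory chain genes were called positive, with medians of 0.20 and 0.14. The mitochondrial chaperone gene hsp-60 averaged 246 ± 4.97 FPKM in the double mutant, 318 ± 9.59 in ivd-1, 238 ± 6.61 in bcat-1 and 363 ± 16.9 in wild-type (interaction 0.24, SE 0.05, adjusted p = 0.0017).

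Only 18 genes had both effects called in both backgrounds, each in 1 direction, with no called interaction, and 8388 genes in all were not called. For 6389 of these the 95% interval of the interaction lay within 2-fold of additive. From these 18, 3 were chosen after their values were seen. The malate dehydrogenase gene mdh-1 averaged 564 FPKM in the double mutant, 699 in ivd-1, 509 in bcat-1 and 638 in wild-type, with an interaction of 0.02 (95% interval -0.08 to 0.11). With median-of-ratios scaling its interaction was called, at 0.21 (adjusted p = 0.014). The cystathionine lyase gene cth-1 averaged 41.5, 23.7, 71.7 and 35 FPKM in the same order of strains, with an interaction of -0.21 (95% interval -0.70 to 0.29). For acs-1, an acyl-CoA synthetase gene of branched-chain fatty acid metabolism, the interaction was -0.29 (95% interval -0.54 to -0.04) with an adjusted p of 0.052, close to the threshold.

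**Figure D5:**
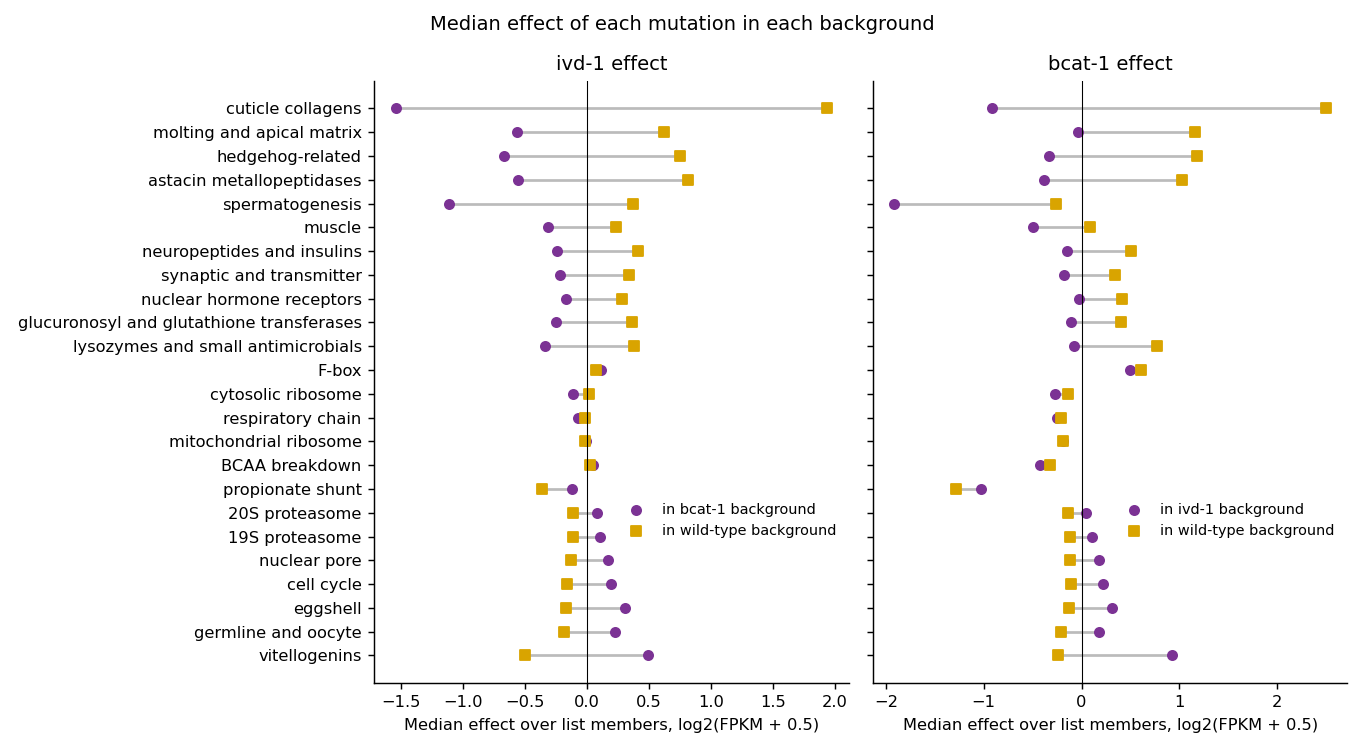
Median effect of ivd-1 (left) and of bcat-1 (right) over the tested members of 24 gene lists, on the log2(FPKM + 0.5) scale. Circles are the effect in the other mutant's background and squares the effect in the wild-type background, joined by a grey line whose length is the gap between the backgrounds. The gap is widest for cuticle collagens, at -1.54 in bcat-1 and 1.94 in wild-type for ivd-1, and close to 0 for mitochondrial ribosome genes.

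Stress, amino acid and detoxification lists lay on both sides of the 47.4% share of called genes among all tested genes. Called interactions numbered 5 of 20 for mitochondrial stress, 7 of 20 for cytosolic heat shock, 9 of 25 for ER stress and ERAD and 3 of 10 for amino acid stress. For cytochrome P450 they numbered 25 of 54, near the share of all genes. Of 29 metal genes 12 were negative (41.4%) and 4 positive (13.8%), near the 35.3% and 12.2% of all tested genes. Of 10 antioxidant genes 3 were negative and 2 positive. Single genes from these and related lists follow. The poly(ADP-ribose) glycohydrolase gene parg-2, whose product removes poly(ADP-ribose) from proteins, had 35.2, 41.5, 20.1 and 30.2 FPKM in the double mutant, 4.82, 8.27, 8.86 and 4.53 in ivd-1, 98.5, 37.7, 93.9 and 69.6 in bcat-1, and 0.554, 0.162, 0.447 and 0.171 in wild-type. The ivd-1 and wild-type samples overlapped no other strain, and the double mutant and bcat-1 overlapped only through bcat-1 replicate 2. The ivd-1 effect was -1.18 in the bcat-1 background and 3.07 in the wild-type background, with an interaction of -4.25 (SE 0.41, adjusted p = 8.0e-06). Wild-type lay at or near the pseudocount, so this fold is understated. The cytochrome P450 gene cyp-14A5 averaged 58.5 ± 19 FPKM in the double mutant, 20.5 ± 3.44 in ivd-1, 116 ± 41 in bcat-1 and 5.99 ± 1.31 in wild-type (interaction -2.66), and the glutathione transferase gene gst-38 had -2.70. Glucuronosyl and glutathione transferases were negative in 61 of 99 (61.6%) and positive in 1, with a median of -0.58 that stayed negative with either other scaling. Nuclear hormone receptors were negative in 94 of 181 (51.9%) and positive in 2 (1.1%), but their median of -0.48 became 0.28 with quantile normalization.

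Among other stress genes, xbp-1, which directs the endoplasmic reticulum stress response, averaged 197 ± 8.23 FPKM in the double mutant, 202 ± 15.3 in ivd-1, 237 ± 32.1 in bcat-1 and 146 ± 11.8 in wild-type (interaction -0.72, SE 0.12, adjusted p = 2.6e-04). The autophagy receptor gene sqst-1 averaged 32.7 FPKM in the double mutant, 27.1 in ivd-1, 48 in bcat-1 and 14.3 in wild-type (interaction -1.39). The fatty acid transporter gene acs-20 had an interaction of -2.02. Of the asparagine synthetase genes, asns-1 averaged 2.68 FPKM in the double mutant, 6 in ivd-1, 8.31 in bcat-1 and 1.44 in wild-type (interaction -3.13, adjusted p = 2.8e-05). In contrast asns-2 averaged 194 ± 76.7, 27.7 ± 4.96, 265 ± 75.7 and 18.6 ± 3.29 FPKM in the same order of strains. Its bcat-1 effect was called in both backgrounds, 2.71 and 3.77, and its interaction of -1.07 (adjusted p = 0.030) was lost with median-of-ratios scaling (adjusted p = 0.051) and quantile normalization (adjusted p = 0.059). It was also lost without double mutant replicate 3 or 4, ivd-1 replicate 2, bcat-1 replicate 1 or 3, or wild-type replicate 4, with adjusted p between 0.054 and 0.066.

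The positive side held few large effects outside the groups above. T22B7.7 had 23.1, 18.8, 37.9 and 24.8 FPKM in the double mutant, 28.3, 61.3, 23.6 and 27.1 in ivd-1, 13.1, 13.3, 7.49 and 9.20 in bcat-1, and 84.4, 247, 149 and 82.0 in wild-type. Wild-type lay above every mutant sample, and bcat-1 lay below every other sample. The interaction was 3.18 (SE 0.60, adjusted p = 7.2e-04). For dhs-26, a short-chain dehydrogenase gene that overlaps ZK816.1 on the other strand, the interaction was 3.10, and for drd-10 it was 2.21. The metallothionein gene mtl-1 averaged 43.9 ± 5.59 FPKM in the double mutant, 1.38 ± 0.362 in ivd-1, 24.8 ± 13.4 in bcat-1 and 1.98 ± 0.805 in wild-type, with a bcat-1 effect in both backgrounds and an interaction of 1.29 (adjusted p = 0.020). The cytochrome P450 gene cyp-25A1 averaged 15.5 ± 0.934, 2.76 ± 0.554, 11.8 ± 4.49 and 6.74 ± 0.303 FPKM in the double mutant, ivd-1, bcat-1 and wild-type (interaction 1.61, SE 0.28, adjusted p = 3.9e-04). The thaumatin-family gene thn-2 had an interaction of 1.42. For the superoxide dismutase gene sod-3 the interaction of 0.52 was at the threshold (adjusted p = 0.049) and was lost when the 4 strains were fitted alone (adjusted p = 0.061) and in most fits that left out 1 sample (adjusted p of up to 0.11).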

How the data were processed

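Polyadenylated RNA from whole day 1 adults was sequenced by the authors on a stranded library, aligned with Tophat2 and quantified with Cufflinks2 as FPKM, and the deposited FPKM table was used as it stands. Whether the counting used strand is not given in the sources used here, so overlapping genes on opposite strands are reported as overlapping. Read counts were not used here, and no interval that needs depth was computed. Values were log2 transformed after adding 0.5 FPKM and fitted with limma 3.58.1 in R 4.3.3 with strain as the only term over all 20 samples, a variance trend with the mean and Benjamini-Hochberg adjustment over 15957 genes. All tests were two-sided. Positions and overlaps come from Ensembl release 115 on WBcel235. Gene symbols were found for 43325 of 46284 identifiers.

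Gene lists and members were chosen with earlier results of these data known. Named genes were the 12 largest called interactions in each direction, with the same sign in all 4 replicate numbers, a mean of at least 5 FPKM in 1 strain and no sample at 0 in a strain reaching 10 FPKM, the 6 largest with a mean of at least 10 FPKM in all 4 strains, ivd-1, bcat-1, acdh-2 and parg-2, up to 6 called members of each of 49 lists, and the 5 genes most like the largest. The fits were tested on simulated data. The molting covariate and the joint removal of bcat-1 replicate 2 and double mutant replicate 3 were added after seeing the data.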

Additional observations from a re-analysis of the deposited data

Results flagged for a closer look

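The ivd-1 effect was called in opposite directions in the 2 backgrounds for 1607 genes, 21.2% of the 7569 with a called interaction. The interaction is the difference of these 2 effects, so its calls favour such genes, and their share over all tested genes was not computed. Samples far from the other 3 of their strain were looked for in 71 genes and 49 list means, by the gap to the nearest sample over the range. Chance flags about 1 in 20 groups. Of 480 groups tested 28 were flagged, close to that rate, so a single flag may be chance. The mitochondrial stress list mean, however, was flagged in every strain of the design. Each of its values lay either between 5.67 and 5.79 or between 6.12 and 6.28. The cause of this repeated flag was not tested. Values below are log2(FPKM + 0.5).

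Wild-type replicate 1 stood apart from the other 3 samples of its strain for grl-16 at 3.86 against 0.22 to 0.72, Y48G8AL.12 at 5.23 against 1.27 to 1.64, R12E2.7 at 4.54 against -0.11 to 0.54, cut-2 at 3.31 against 0.49 to 0.92, mitochondrial stress list mean at 6.17 against 5.70 to 5.71 and ER stress and ERAD list mean at 6.49 against 6.41 to 6.42. Double mutant replicate 3 stood apart from the other 3 samples of its strain for pas-5 at 8.73 against 8.61 to 8.63, dhs-26 at 3.22 against 2.48 to 2.52, 19S proteasome list mean at 7.62 against 7.44 to 7.47, 20S proteasome list mean at 8.35 against 8.23 to 8.23, molting and apical matrix list mean at 2.16 against 2.40 to 2.44, mitochondrial stress list mean at 6.12 against 5.68 to 5.69, F-box list mean at 1.64 against 1.45 to 1.47 and carbohydrate list mean at 6.31 against 6.56 to 6.57. Bcat-1 replicate 2 stood apart from the other 3 samples of its strain for pas-5 at 8.65 against 8.50 to 8.51, acdh-2 at -0.05 against -0.53 to -0.46 and cth-1 at 5.58 against 6.27 to 6.41. Wild-type replicate 3 stood apart from the other 3 samples of its strain for hphd-1 at 8.46 against 8.74 to 8.75, hach-1 at 8.13 against 8.57 to 8.59 and antioxidant list mean at 5.56 against 5.43 to 5.44. The propionate shunt list, which holds hphd-1 and hach-1, had its lowest mean in replicate 3 of every strain. Double mutant replicate 4 stood apart from the other 3 samples of its strain for hsp-60 at 7.99 against 7.93 to 7.94. Wild-type replicate 4 stood apart from the other 3 samples of its strain for col-95 at 7.46 against 7.17 to 7.22. Ivd-1 replicate 2 stood apart from the other 3 samples of its strain for sqst-1 at 5.07 against 4.64 to 4.71. Ivd-1 replicate 4 stood apart from the other 3 samples of its strain for ugt-32 at 2.45 against 2.64 to 2.65. Bcat-1 replicate 3 stood apart from the other 3 samples of its strain for nlp-34 at 6.88 against 5.74 to 5.94 and cytochrome P450 list mean at 2.61 against 2.45 to 2.47. Ivd-1 replicate 3 stood apart from the other 3 samples of its strain for mitochondrial stress list mean at 5.79 against 6.24 to 6.28. Bcat-1 replicate 4 stood apart from the other 3 samples of its strain for mitochondrial stress list mean at 6.18 against 5.67 to 5.75.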

How the results depend on the processing

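Pseudocounts, filters, the square root scale, the variance trend and a fit of the 4 strains alone moved the interaction count by less than 1.5 times. Median-of-ratios scaling gave 4348 positive and 4462 negative calls and quantile normalization 5905 and 2685, against 1944 and 5625. At an adjusted p of 0.01 the counts were 4096 for the interaction, 304 and 1909 for ivd-1 in the bcat-1 and wild-type backgrounds, and 4259 for bcat-1 in the ivd-1 background. The germline covariate gave 3118 for the interaction and 370 for ivd-1 in bcat-1, and sample weights gave 5831 for ivd-1 in wild-type. The molting covariate gave 6, 4 and 450 for the interaction and for ivd-1 in bcat-1 and in wild-type. Leaving out 1 sample gave 5916 to 9184 for the interaction, 448 to 7707 for ivd-1 in bcat-1, 2269 to 4240 for ivd-1 in wild-type, 5098 to 7751 for bcat-1 in ivd-1 and 6094 to 7853 for bcat-1 in wild-type.

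Of 71 genes named, 67 were called, and 65 of these were no longer called with the molting covariate. Of the 65, 20 also changed sign, namely spe-11 (0.95), alg-4 (1.11), alg-3 (1.24), myo-3 (0.26), mup-2 (0.24), asns-2 (0.82), lpr-3 (0.83), mlt-9 (0.025), chs-1 (-0.30), pas-5 (-0.063), rpn-11 (-0.23), puf-5 (-0.21), npp-9 (-0.11), cpg-2 (-0.14), mcm-6 (-0.39), pie-1 (-0.19), oma-2 (-0.35), cyb-3 (-0.525), vit-3 (-0.028) and sod-3 (-0.24), and the cause was not tested. With a pseudocount of 0.1, acdh-2 had 0.94. With the germline covariate 11 of the 67 were no longer called. Replicate numbers gave little pairing by correlation, since deviations correlated above 0.1 in 5 of 24 pairs and 6 of 16 samples correlated best with their own number. Some lists did share a replicate pattern. Replicate 3 had the lowest mean log2 level of branched-chain amino acid breakdown genes in every strain. These means were 6.50 in the double mutant, 7.35 in ivd-1, 6.50 in bcat-1 and 7.16 in wild-type. The propionate shunt list was also lowest in replicate 3 of every strain. A replicate block gave 7321 interaction calls and changed no call among the 71 genes. Read depth is unknown, so the precision of low values could not be computed.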
